A study of Arabidopsis thaliana with 48 samples.

Results

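Transcripts of 10 genes of the mitotic phase of the plant cell cycle were followed in RNA-Seq libraries of Arabidopsis thaliana seedlings (wild type, Col-0). The genes were named one by one: the B-type cyclins CYCB1;1 (AT4G37490), CYCB1;2 (AT5G06150), CYCB1;3 (AT3G11520), CYCB1;4 (AT2G26760) and CYCB2;1 (AT2G17620), the A-type cyclin CYCA1;1 (AT1G44110), the plant-specific kinases CDKB1;1 (AT3G54180), CDKB2;1 (AT1G76540) and CDKB2;2 (AT1G20930), and the cell plate syntaxin KNOLLE (AT1G08560). All 10 were present among the 32833 genes of the table, and all 10 passed the filter on low values (mean normalised count over all libraries not under 10), which left 21536 genes for testing.

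Seedlings were grown on agar medium, with or without 50 mM NaCl (Salt) and 0.05 µM paraquat (PQ), a herbicide that produces superoxide in chloroplasts. At 10 d the plates were kept under 700 µmol m-2 s-1 of light (HL), at 33°C (HS), under both or under neither for 1.5 h, while unstressed plates stayed at 21°C with light of 50 µmol m-2 s-1. All 15 treatments that these 4 stresses can form were sampled beside the unstressed control, so that there were 16 groups of 3 biological replicates (48 libraries), each library from a pool of at least 100 whole seedlings. A pool mixes organs, and dividing cells are a small part of it, so that fewer dividing cells and less RNA per dividing cell cannot be told apart in these data.

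Mitotic cyclins bind cyclin-dependent kinases and are made and destroyed once in each cell cycle. B1-type cyclins peak from G2 to metaphase, and CYCA1;1 is likewise expressed from G2 into mitosis. CDKB kinases have no counterpart in animals, with CDKB1;1 active from S phase to mitosis and the CDKB2 pair confined more closely to G2 and M. KNOLLE fuses vesicles to the growing cell plate at cytokinesis. Many of these genes share a promoter element, the mitosis-specific activator (MSA), with the core AACGG, which is bound by MYB3R transcription factors, activators as well as repressors.

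Libraries held 67888254 to 87569857 reads on genes. Before any result, the labels were set against genes that are known to respond to each stress. Heat, light, salt and oxidative markers went against them in part. HSP101, a chaperone that dissolves aggregates after heat, had a log2 fold change against the control of 4.03 in libraries labelled HS but of 5.79 in Salt, 7.15 in PQ and 6.04 in HL, none of which are labelled as heated. It reached 10.19 in PQ + HS, 10.82 in HL + HS, 10.66 in Salt + PQ + HS as well as 10.65 in Salt + HL + HS. In contrast it was 0.04 in PQ + HL + HS and 0.05 with all 4 stresses, whose labels include heat. The small chaperone HSP18.2 had the same split, at 10.07 in Salt, 3.46 in HS, 13.98 in HL + HS and 0.06 with all 4 stresses. The light-induced chloroplast gene ELIP1 had 5.79 in HL and 5.61 in PQ, but 0.53 in Salt + HL and -0.19 with all 4 stresses. RD29A, a gene induced by salt, drought and cold, had 2.06 in Salt, but also 2.15 in PQ and 1.95 in HL, and -0.58 in Salt + HL and -0.09 in Salt + HS. The other salt markers were divided there. RD29B had means of 2269 normalised counts in Salt + HL and 4683 in Salt + HS, against 1063 in the control, and RAB18 had 4285 and 5899, against 2366. COR15A had 601.5 and 1362, against 1556. The running numbers in the sample titles were consecutive within 13 of the 16 groups, and not within those labelled Salt + PQ, PQ + HL or Salt + PQ + HL. Replicates were close in their markers, since HSP101 varied by at most 0.23 on the log2 scale within a group. Whether the labels or the plants account for it was not tested. Groups are therefore called below by what their libraries are labelled, and no library was moved.

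Promoters are shown because the members differ in them. In the 250 bases before the annotated start (RefSeq, build TAIR10.1), AACGG was found on either strand in 7 of the 9 members whose promoters are reported, 5 of which held it at least 2 times. It occurred in 20.6% of all 27443 promoters of the same length, and at least 2 times in 3.62%. When the first 50 bases of the transcript were added, 8 members held it, against 24.7% of promoters, and 7 of them at least 2 times, against 4.89%. CYCB1;2 held 4 matches before its start, the most of these members, while CDKB1;1 held none in either window. None of the 9 held the E2F-like sequences TTTCCCGC, TTTGGCGC, TTTCCCGG or TTTGCCGC on either strand, which were found in 1.65% of promoters. A match is a run of letters, not a site shown to be bound. Capitals in the sequences, each written 5′ to 3′ on the strand of its gene, mark AACGG or its reverse complement CCGTT.
CYCB1;1, chr4:17624309-17624558, minus strand: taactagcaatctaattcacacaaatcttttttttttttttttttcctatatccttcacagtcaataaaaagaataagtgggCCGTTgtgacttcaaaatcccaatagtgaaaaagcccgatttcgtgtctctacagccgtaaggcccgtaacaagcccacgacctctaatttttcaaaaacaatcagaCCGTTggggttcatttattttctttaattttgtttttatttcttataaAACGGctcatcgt
CYCB1;2, chr5:1861704-1861953, minus strand: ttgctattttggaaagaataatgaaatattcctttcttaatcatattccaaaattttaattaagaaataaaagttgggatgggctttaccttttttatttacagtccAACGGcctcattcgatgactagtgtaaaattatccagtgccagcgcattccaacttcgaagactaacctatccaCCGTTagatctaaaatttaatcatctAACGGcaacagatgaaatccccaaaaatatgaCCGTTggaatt
CYCA1;1, chr1:16777353-16777602, minus strand: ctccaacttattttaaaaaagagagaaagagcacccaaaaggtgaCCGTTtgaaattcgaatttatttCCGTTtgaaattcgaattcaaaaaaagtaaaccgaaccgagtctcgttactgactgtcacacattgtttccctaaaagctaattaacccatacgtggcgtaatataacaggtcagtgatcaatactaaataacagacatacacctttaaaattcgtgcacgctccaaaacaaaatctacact
CDKB1;1, chr3:20059421-20059670, plus strand: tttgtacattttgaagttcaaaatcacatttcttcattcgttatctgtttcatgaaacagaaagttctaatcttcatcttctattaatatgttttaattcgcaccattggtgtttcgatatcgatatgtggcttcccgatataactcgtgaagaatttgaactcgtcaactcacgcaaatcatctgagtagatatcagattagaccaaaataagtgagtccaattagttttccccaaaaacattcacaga
KNOLLE, chr1:2711001-2711250, minus strand: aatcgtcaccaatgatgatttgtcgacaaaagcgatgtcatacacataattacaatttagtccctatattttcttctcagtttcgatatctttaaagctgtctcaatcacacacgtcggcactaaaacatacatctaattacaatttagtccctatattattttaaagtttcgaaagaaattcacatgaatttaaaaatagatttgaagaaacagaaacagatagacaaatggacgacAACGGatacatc

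The matches of CYCB1;1 began 168, 61 and 13 bases before the start and that of KNOLLE 12 bases before it. Gene bodies on the same build lay at chr4:17621886-17624308 (CYCB1;1, minus strand), chr5:1859279-1861703 (CYCB1;2, minus strand), chr3:3625286-3627273 (CYCB1;3, minus strand), chr2:11401118-11403433 (CYCB1;4, plus strand), chr2:7664055-7666522 (CYCB2;1, plus strand), chr1:16774765-16777352 (CYCA1;1, minus strand), chr3:20059671-20061488 (CDKB1;1, plus strand), chr1:28720328-28722550 (CDKB2;1, minus strand), chr1:7292389-7294746 (CDKB2;2, minus strand) and chr1:2709525-2711000 (KNOLLE, minus strand). Every 50-base window of the exons is unique in the genome for 9 members, and 88.7% of them are for CYCB1;2. Genes on the opposite strand overlap CDKB1;1 by 71 bases, CDKB2;1 by 44, CDKB2;2 by 192 and KNOLLE by 464. The strand setting of the counting is not given in the sources used here, so that reads from these stretches cannot be assigned to one gene or the other.

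In the unstressed control, levels per length were highest for KNOLLE and lowest for CYCB2;1. KNOLLE had 834 ± 21.9 and CDKB2;1 798 ± 25.9 normalised counts per kilobase of exon (mean ± SD, n = 3). Next came CYCB1;2 (519 ± 16.5), CDKB2;2 (412 ± 12.5), CYCB1;4 (294 ± 19.7), CDKB1;1 (289.7 ± 23.4), CYCA1;1 (264 ± 11.0), CYCB1;1 (189 ± 20.6), CYCB1;3 (169 ± 6.15) and CYCB2;1 (56.4 ± 4.33). The libraries of KNOLLE and CDKB2;1 overlapped in this order, as did those of CYCB1;4 with CDKB1;1, CDKB1;1 with CYCA1;1 and CYCB1;1 with CYCB1;3. CYCB2;1 stood lowest in all 16 groups. CYCA1;1 took place 9 of 10 in PQ + HS, HL + HS, Salt + PQ + HS and Salt + HL + HS, against place 7 in the control.

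**Figure D1:**
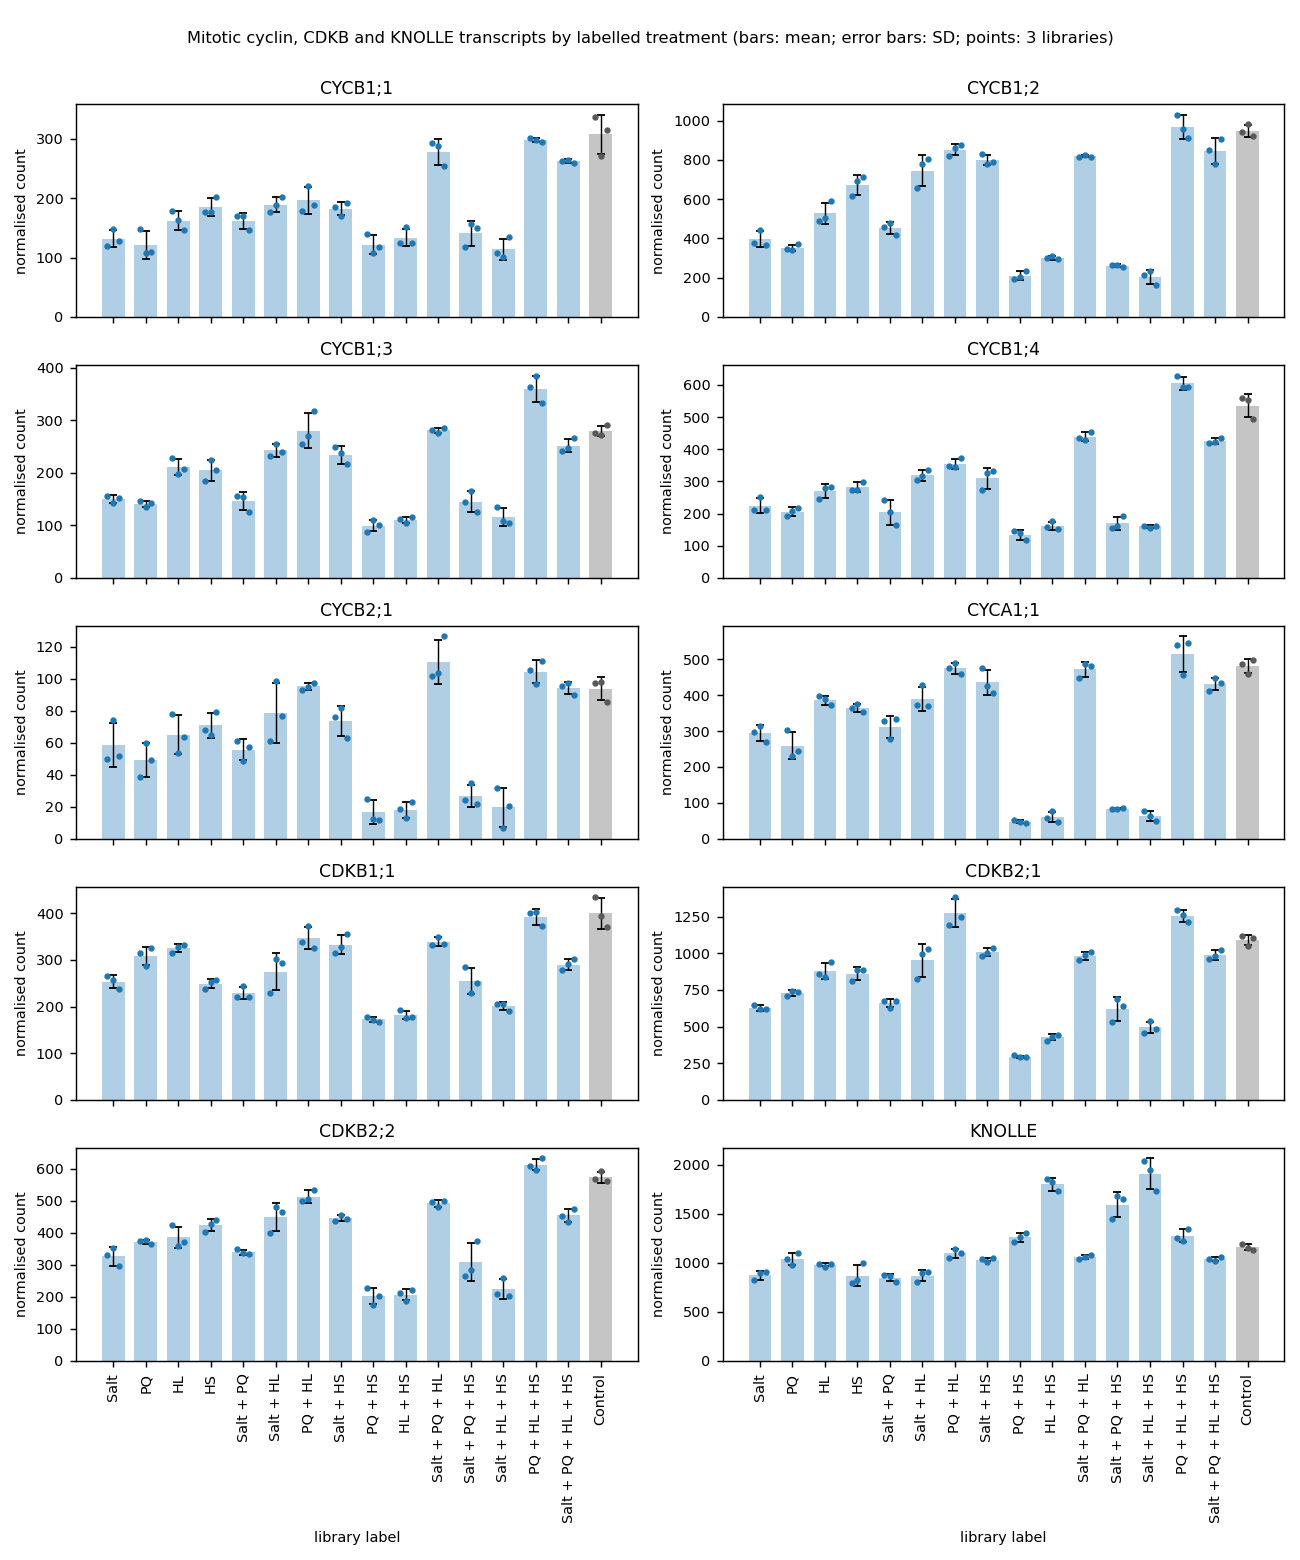
Normalised read count of each of the 10 genes (y axis, linear, from 0) in the 15 labelled treatments and the control (x axis); bars are means, error bars SD and points the 3 libraries. In libraries labelled PQ + HS, HL + HS, Salt + PQ + HS or Salt + HL + HS, all 9 cyclin and CDKB genes lie below the control and KNOLLE above it, though KNOLLE turns round when libraries are scaled to the same total.

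Each treatment was compared with the control in a single limma fit over all genes and libraries, on log2(normalised count + 1). A gene was called at a Benjamini-Hochberg adjusted p under 0.05 over all genes tested. With the single stresses, all 10 members were lower in libraries labelled Salt (39.1% of all genes tested were lower and 40.5% higher) and in PQ (39.0% lower, 40.2% higher). There were 9 lower in HL (37.5% of all genes lower, 38.5% higher) and 9 in HS (34.2% lower, 37.2% higher), CYCB2;1 being the exception in both. The median log2 fold change of the 10 was -0.81 in Salt, -0.91 in PQ, -0.47 in HL and -0.44 in HS, beside a median over all genes of 0.00 in the first 3 and 0.01 in HS.

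Among the combinations of 2 stresses, Salt + PQ had 10 members lower (38.5% of all genes lower, 40.2% higher), Salt + HL 8 (33.5% lower, 35.8% higher) and Salt + HS 7 (33.9% lower, 35.6% higher). The last count was 4 when replicate 2 of each treatment was left out. PQ + HL had 3 lower and 1 higher, CDKB2;1 (34.4% of all genes lower, 35.9% higher), and the second of these counts was 0 without replicate 2 of each treatment. The median fall was largest where HS was combined with PQ or with HL. In PQ + HS, 9 members were lower and 0 higher in limma, at an unadjusted p under 0.05 as well as in edgeR and DESeq2 (42.1% of all genes lower, 42.1% higher), with a median of -1.70, although KNOLLE was called higher without replicate 1 of each treatment. In HL + HS, 9 were lower and KNOLLE was higher (43.2% lower, 42.7% higher), with a median of -1.41.

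With 3 stresses, Salt + PQ + HS had 9 members lower and KNOLLE higher (42.4% of all genes lower, 42.2% higher; median -1.04), and Salt + HL + HS again 9 lower and KNOLLE higher (43.0% lower, 42.9% higher; median -1.39). Libraries labelled Salt + PQ + HL had 2 lower, CYCB1;4 and CDKB1;1 (20.9% lower, 19.6% higher), a count that was 0 without control replicate 1, 1 without control replicate 2 or replicate 1 or 2 of each treatment, and 6 with only the libraries of both groups fitted. PQ + HL + HS had 0 lower in limma (0 also at an unadjusted p under 0.05, in edgeR and in DESeq2) and 2 higher, CYCB1;3 and CDKB2;1 (10.1% lower, 9.65% higher). The count of higher members was 0 when replicate 2 of each treatment was left out, and 1 without replicate 3 of each or without control replicate 2 or 3. In Salt + PQ + HL + HS, 4 members were lower, CYCB1;4, CDKB1;1, CDKB2;2 and KNOLLE (23.6% lower, 23.3% higher), and the median of the 10 was -0.16. Counts of 3 of 10 in PQ + HL and 2 of 10 in Salt + PQ + HL are near the background, while those of 7 to 10 stood against a background of 33.5% to 43.2%.

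These fold changes rest on the size factors in the deposited values. When libraries were scaled to the same total instead, the median over all genes moved to -0.66 in PQ + HS, -0.88 in HL + HS, -0.80 in Salt + PQ + HS as well as -0.84 in Salt + HL + HS, and to between -0.12 and -0.29 in Salt, PQ, Salt + PQ, HL, PQ + HL and Salt + HS. Of all genes, 71.9% were then lower and 18.6% higher in PQ + HS, 78.8% and 14.3% in HL + HS, 76.3% and 15.5% in Salt + PQ + HS, and 78.1% and 14.6% in Salt + HL + HS. The split also moved by over 10 points of the called genes for Salt (51.3% lower, 30.1% higher), PQ (57.3% and 25.2%), HL (52.7% and 26.5%), HS (41.7% and 30.2%), Salt + PQ (51.3% and 29.1%), PQ + HL (45.3% and 27.4%) and Salt + HS (44.6% and 27.6%). No member called lower lost its call under this scaling. Among members called under at least one scaling, KNOLLE was the only one whose direction turned round in a comparison with the control. CYCB2;1, called under neither, had 0.03 in PQ + HL and 0.01 with all 4 stresses, and -0.09 and -0.02 in that order with libraries scaled to the same total.

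**Figure D2:**
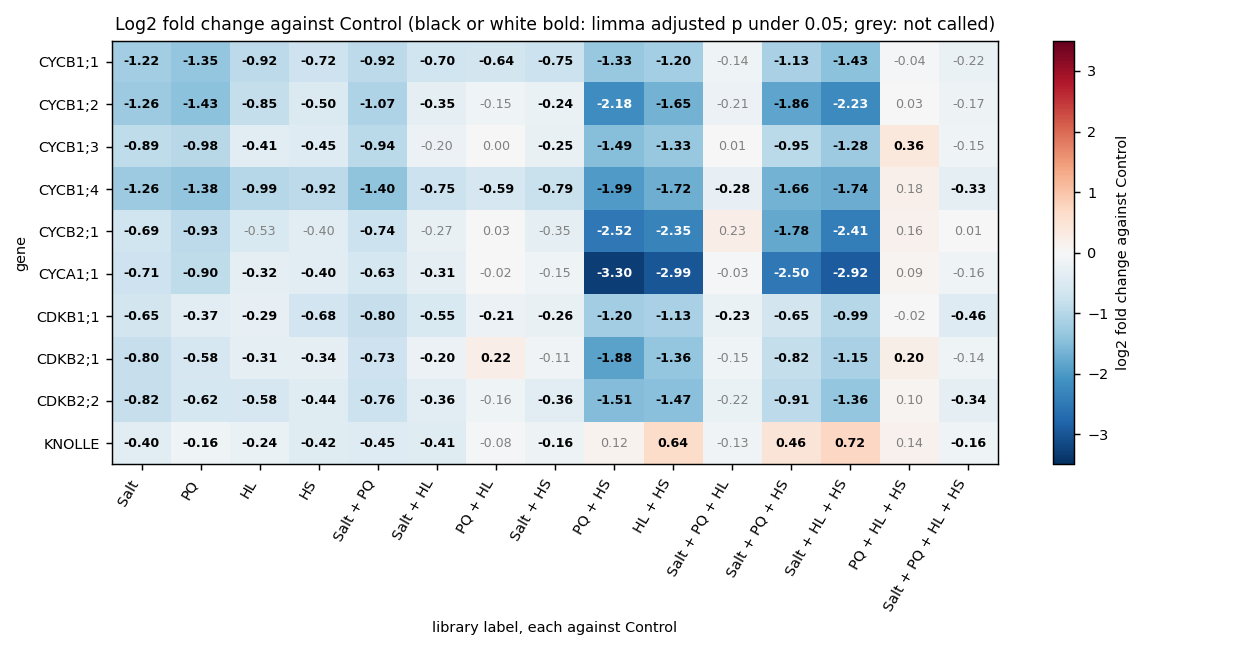
Log2 fold change of each gene (rows) in each labelled treatment against the control (columns), with blue lower and red higher; bold numbers passed limma at an adjusted p under 0.05 and grey ones did not. The darkest cells are those of CYCA1;1, from -3.30 in PQ + HS to -2.50 in Salt + PQ + HS; the positive KNOLLE values in the same columns turn negative when libraries are scaled to the same total.

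CYCA1;1 had the largest estimated falls of the 10 in these 4 groups. Its normalised counts were 52.8, 46.6 and 44.2 in PQ + HS, 59.0, 76.2 and 47.4 in HL + HS, 84.3, 81.6 and 85.6 in Salt + PQ + HS, and 77.1, 63.1 and 50.5 in libraries of Salt + HL + HS, against 486, 459 and 498 in the control. All 12 stressed libraries lay below the lowest control library. The fold decrease was 9.88-fold in PQ + HS (log2 fold change -3.30 ± 0.12, SE; limma, adjusted p = 1.57e-27) and 5.67-fold in Salt + PQ + HS (-2.50 ± 0.12; adjusted p = 4.73e-23). The single stresses changed it less, with 296, 314 and 269.6 in Salt and 302, 231 and 244 in PQ, and 397, 388 and 373 in HL and 363, 376 and 353 in HS. None of these libraries reached the control range. Where HS, PQ and HL were combined, the counts overlapped the control, with 540.2, 455 and 544 in PQ + HL + HS (log2 fold change 0.09 ± 0.12; adjusted p = 0.684) or lay just below it, with 411, 446 and 433 in Salt + PQ + HL + HS (-0.16 ± 0.12; adjusted p = 0.288). Neither difference passed the test.

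CYCB2;1, the least abundant member, followed CYCA1;1 with a wider spread. It had 25.1, 12.6 and 11.7 normalised counts in PQ + HS, 18.5, 12.7 and 22.9 in HL + HS, 24.5, 34.8 and 21.8 in Salt + PQ + HS as well as 31.8, 7.02 and 20.197 in Salt + HL + HS, against 97.5, 98.043 and 85.3 in the control. The lowest of these libraries, Salt + HL + HS replicate 2, held 5 reads of the gene, and none of the 12 reached the control. Log2 fold changes were -2.52 ± 0.29, -2.35 ± 0.29, -1.78 ± 0.29 and -2.41 ± 0.29 in that order of treatments, with adjusted p (limma) of 1.04e-10, 6.09e-10, 3.32e-07 and 2.95e-10. In the single stresses it was called lower by limma only in Salt (-0.69 ± 0.29, adjusted p = 0.0264) and PQ (-0.93 ± 0.29, adjusted p = 0.00337). Its libraries in HL and HS also lay below every control library, with means at 69.5% and 75.7% of that of the control. Scaled to the same total, limma called it lower in HL too (-0.74 ± 0.29, adjusted p = 0.0173), but not in HS (-0.49 ± 0.29).

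CYCB1;2, the most abundant of the B1 cyclins, had 192, 201 and 235 normalised counts in PQ + HS, 298, 309.6 and 293 in HL + HS, 266, 263 and 254 in Salt + PQ + HS as well as 215, 233 and 164 in Salt + HL + HS, against 943, 980.4 and 921 in the control. These are decreases of 3.15-fold in HL + HS to 4.68-fold in Salt + HL + HS (log2 fold change -2.23 ± 0.09; limma, adjusted p = 1.18e-25). Counts were intermediate in the libraries labelled Salt (379, 443 and 367), PQ (347, 339 and 370.3), Salt + PQ (459, 476 and 416) and HL (489.5, 505 and 589.9). They were closer to the control in HS (616, 689.9 and 711) and Salt + HL (654, 777 and 803). All of these lay below the lowest control library. In PQ + HL + HS (1030.3, 956 and 910.4) they overlapped the control.

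CYCB1;1, whose protein product is used in reporter lines as a marker of G2/M cells, changed within a smaller range. It had 139, 108 and 117 normalised counts in PQ + HS, 125, 151 and 125 in HL + HS, 117, 156 and 149 in Salt + PQ + HS as well as 107, 101 and 134 in Salt + HL + HS, against 336, 271 and 315 in the control. Libraries labelled Salt (119.8, 148 and 127) and PQ (147, 107 and 109) were as low. Log2 fold changes were -1.22 ± 0.13 in Salt, -1.35 ± 0.13 in PQ and -1.33 ± 0.13 in PQ + HS, whereas CYCA1;1 had -0.71 ± 0.12, -0.90 ± 0.12 and -3.30 ± 0.12 in the same order. In Salt + PQ + HL (294, 287 and 254), in PQ + HL + HS (302, 299 and 294) and Salt + PQ + HL + HS (263, 265 and 259) the gene passed no test (adjusted p = 0.401, 0.89 and 0.147 by limma).

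CYCB1;4 and CYCB1;3 completed the B1 group. CYCB1;4 had 147, 138 and 117 normalised counts in PQ + HS, against 559, 553 and 494 in the control (log2 fold change -1.99 ± 0.10; limma, adjusted p = 5.35e-22). It was called lower in 14 of the 15 treatments, PQ + HL + HS being the exception (0.18 ± 0.10; adjusted p = 0.25), and was the only cyclin called in Salt + PQ + HL + HS (-0.33 ± 0.10; adjusted p = 0.0068). CYCB1;3 had 88.0, 109.5 and 100.1 in PQ + HS, against 275, 272 and 291 in the control (-1.49 ± 0.11; adjusted p = 5.87e-17). In PQ + HL + HS it was higher, with 363, 383 and 334, each above the highest control library (0.36 ± 0.11; adjusted p = 0.0102).

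The CDKB genes fell in the same groups. CDKB2;1 had 303, 291 and 291 normalised counts in PQ + HS, 403, 432 and 442 in HL + HS, 532, 686 and 643 in Salt + PQ + HS as well as 458, 537 and 485 in Salt + HL + HS, against 1119, 1051 and 1101 in the control. Its decrease was 3.69-fold in PQ + HS (log2 fold change -1.88 ± 0.07; limma, adjusted p = 6.06e-27) and 1.77-fold in Salt + PQ + HS (-0.82 ± 0.07; adjusted p = 2.95e-14). In PQ + HL it was higher, with 1194, 1381 and 1249, all above the control libraries (log2 fold change 0.22 ± 0.07; adjusted p = 0.00494), a call that was lost without replicate 2 of each treatment and with libraries scaled to the same total. CDKB2;2 had 226, 175 and 204 in PQ + HS and 212, 187 and 222 in HL + HS, against 567, 594 and 561 in the control (log2 fold changes -1.51 ± 0.10 and -1.47 ± 0.10). It was also lower with all 4 stresses (-0.34 ± 0.10; adjusted p = 0.00334).

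CDKB1;1 had the smallest estimated decreases among the 9 cyclins and kinases in these 4 groups. It had 178, 171 and 168 normalised counts in PQ + HS, 192, 176 and 177 in HL + HS, 284, 228 and 251 in Salt + PQ + HS as well as 206, 205 and 190.4 in Salt + HL + HS, against 434, 395 and 370.0 in the control. Log2 fold changes were -1.20 ± 0.08, -1.13 ± 0.08, -0.65 ± 0.08 and -0.99 ± 0.08 in that order of treatments. It was also lower in Salt + PQ + HL + HS, with 277, 291 and 301 (-0.46 ± 0.08; limma, adjusted p = 1.42e-05), where the cyclins other than CYCB1;4 passed no test.

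KNOLLE differed from the other 9 in these 4 groups. It had 1211, 1261 and 1302 normalised counts in PQ + HS, 1852, 1824 and 1726 in HL + HS, 1445, 1681 and 1650.0 in Salt + PQ + HS as well as 2041, 1943 and 1736 in Salt + HL + HS, against 1188, 1149.8 and 1128 in the control. All 12 stressed libraries lay above the highest control library. Log2 fold changes were 0.12 ± 0.06 (limma, adjusted p = 0.0682), 0.64 ± 0.06 (1.74e-12), 0.46 ± 0.06 (1.08e-08) and 0.72 ± 0.06 (5.2e-14). Scaled to the same total, the same values were -0.53 ± 0.06, -0.22 ± 0.06, -0.33 ± 0.06 and -0.11 ± 0.06, so that its direction depends on the scaling. In each single stress KNOLLE was lower, with 821, 894 and 905 in Salt and 793, 819 and 994 in HS (log2 fold changes -0.40 ± 0.06 and -0.42 ± 0.06), and it was lower under the same-total scaling too.

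Ratios between genes of one library do not depend on scaling, apart from the 1 added to each normalised count, and were examined after these values had been seen. The log2 ratio of KNOLLE to the mean of the other 9 was 3.49 ± 0.16 in PQ + HS, 3.76 ± 0.055 in HL + HS, 3.25 ± 0.053 in Salt + PQ + HS as well as 3.87 ± 0.11 in Salt + HL + HS, against 1.43 ± 0.0070 in the control (mean ± SD, n = 3). It was 2.22 ± 0.071 in PQ and 1.95 ± 0.12 in Salt, and 1.49 ± 0.016 in Salt + PQ + HL + HS. None of these 7 treatments overlapped the control in any library. The ratio of CYCA1;1 to the mean of the 4 B1 cyclins moved in both directions. It was -1.48 ± 0.12 in PQ + HS and -1.44 ± 0.29 in HL + HS, but 0.52 ± 0.069 in Salt and 0.55 ± 0.058 in HL, against 0.07 ± 0.056 in the control. The libraries of these 4 treatments did not overlap the control on either side.

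**Figure D3:**
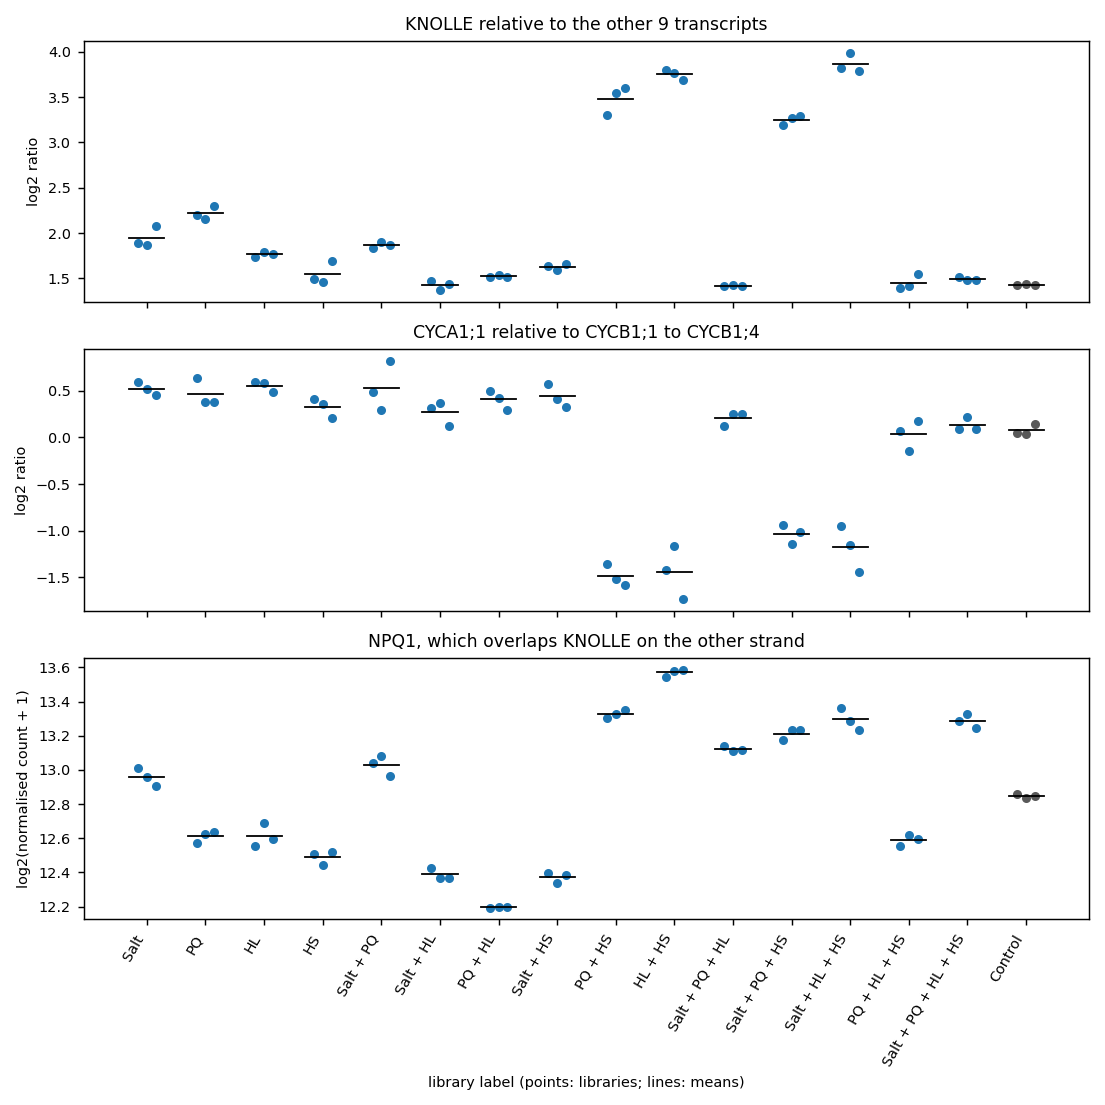
Per library (points) and group mean (lines), the log2 ratio of KNOLLE to the mean of the other 9 genes (top), that of CYCA1;1 to the mean of CYCB1;1 to CYCB1;4 (middle) and the level of NPQ1 as log2(normalised count + 1) (bottom), for the 15 labelled treatments and the control (x axis). The top ratio stands at 3.25 to 3.87 where HS is labelled with PQ or with HL but not both, against 1.43 in the control. With the deposited size factors, NPQ1 is high in the same groups but also in Salt + PQ + HL + HS.

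On the other strand, KNOLLE shares 464 bases with NPQ1 (AT1G08550), the violaxanthin de-epoxidase of the xanthophyll cycle, which had the higher counts. NPQ1 had a mean of 10279 normalised counts in PQ + HS, 12161 in HL + HS, 9491 in Salt + PQ + HS as well as 10068 in Salt + HL + HS, against 7361 in the control. It also had 9987 with all 4 stresses, and 8908 in Salt + PQ + HL, where KNOLLE was not higher (-0.16 ± 0.06 and -0.13 ± 0.06 on the log2 scale). In the first 4 of these groups NPQ1 had log2 changes of 0.48, 0.72, 0.37 and 0.45 with the deposited size factors. The median over all genes moved further the other way with libraries scaled to the same total (-0.66, -0.88, -0.80 and -0.84 in that order). NPQ1 itself is not given under that scaling. The part of NPQ1 reads in the KNOLLE counts was not tested. Without strand, reads of both genes cannot be told apart in the shared stretch.

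Because the heat markers went against the labels, the level of HSP101 is set beside that of the members. The mean log2 level of the 9 cyclin and CDKB transcripts was 6.81 ± 0.11 in PQ + HS, 7.06 ± 0.0028 in HL + HS, 7.03 ± 0.13 in Salt + HL + HS as well as 7.38 ± 0.069 in Salt + PQ + HS, against 8.75 ± 0.038 in the control (mean ± SD, n = 3). These 12 libraries were the ones with the highest HSP101. The mean level of the 9 was 7.80 ± 0.019 in PQ, 7.83 ± 0.10 in Salt, 7.86 ± 0.076 in Salt + PQ, 8.21 ± 0.068 in HS, 8.17 ± 0.049 in HL, 8.34 ± 0.14 in Salt + HL and 8.38 ± 0.012 in Salt + HS. The order was not that of HSP101 throughout, since Salt + HS and Salt had similar changes of HSP101 (log2 fold changes 5.50 and 5.79) but differed in the members. Salt + PQ + HL (8.63 ± 0.022), PQ + HL + HS (8.86 ± 0.034) and all 4 stresses (8.53 ± 0.031) had an HSP101 near that of the control and members close to its level. PQ + HL (8.58 ± 0.053) was nearer to the control than all 4 stresses were, with a high HSP101 (log2 fold change 6.01). The part of the heat response in the levels of the members was not tested.

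**Figure D4:**
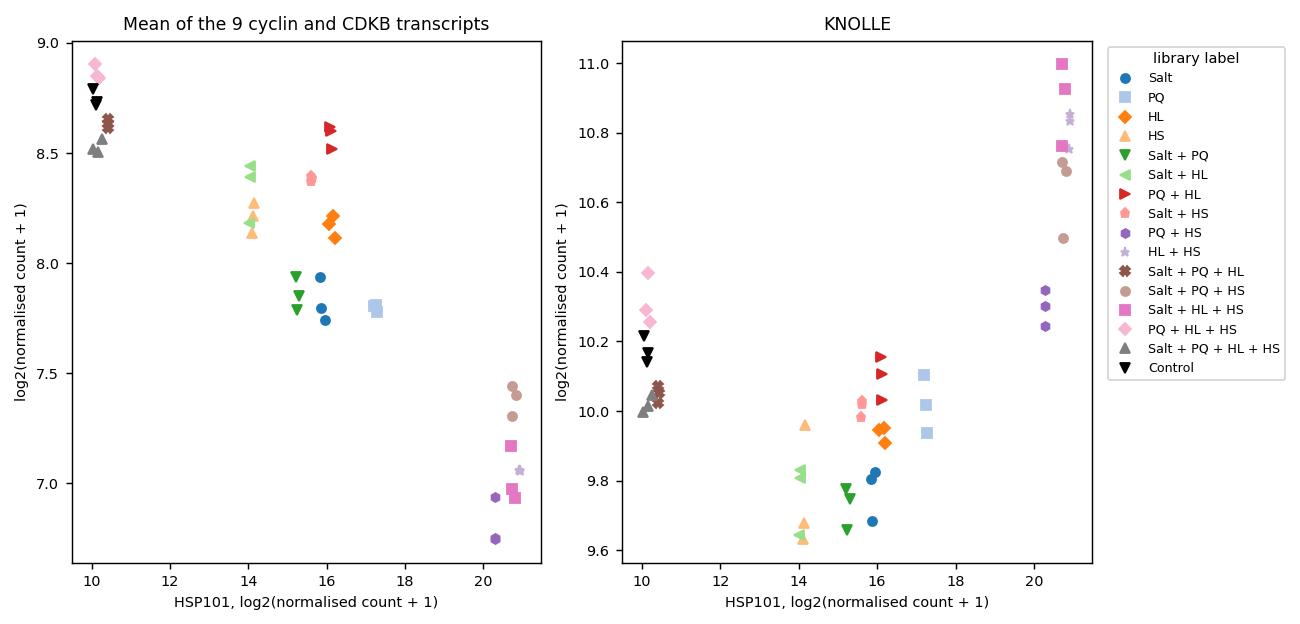
Level of the heat marker HSP101 (x axis) against the mean level of the 9 cyclin and CDKB transcripts (left) and against KNOLLE (right), all as log2(normalised count + 1), with 1 point per library and a symbol per label. On the left the 12 libraries at the right end of the axis lie between 6.75 and 7.44, against 8.72 to 8.79 in the control; on the right their KNOLLE values lie above the control, which turns round when libraries are scaled to the same total.

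To ask what each stress does on top of the others, Salt + PQ + HL + HS was compared with the combination lacking that stress. These contrasts rest on the labels, which the heat markers went against. Adding PQ to Salt + HL + HS went with 9 members higher (43.5% of all genes higher) and KNOLLE lower (42.9% lower), with log2 fold changes of up to 2.76 ± 0.12 for CYCA1;1 (limma, adjusted p = 1.16e-24). Adding HL to Salt + PQ + HS likewise went with 9 higher (42.7%) and KNOLLE lower (42.4%), and CYCA1;1 changed by 2.35 ± 0.12. Scaled to the same total, KNOLLE had -0.07 ± 0.06 and 0.15 ± 0.06, and 16.3% of all genes were lower and 76.1% higher for PQ, and 16.7% lower and 75.0% higher for HL. CDKB1;1 was higher with HL added by 0.19 ± 0.08, but its call was lost when other groups were left out of the fit. Adding Salt to PQ + HL + HS went with 6 members lower (26.6% of all genes lower), the largest change being -0.51 ± 0.11 for CYCB1;3. Adding HS to Salt + PQ + HL went with 1 lower, CDKB1;1 (14.5% of all genes lower; -0.23 ± 0.08, adjusted p = 0.0386), a call that was lost when replicate 1, 2 or 3 of each treatment was left out, and 21.1% of genes were lower and 9.98% higher when libraries were scaled to the same total.

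The effect of each stress on top of the other 3 was then tested against its effect alone, as an interaction in the same limma fit. For PQ, the difference was positive in 9 members (43.7% of all genes) and negative in KNOLLE (43.3%), and for HL it was again positive in 9 (43.1%) and negative in KNOLLE (42.9%). CYCA1;1 differed by 3.66 ± 0.17 for PQ, with a change of -0.90 ± 0.12 for PQ alone. Under the same-total scaling the difference of KNOLLE turned positive, at 0.38 ± 0.09 for PQ and 0.60 ± 0.09 for HL, and 19.5% of all genes then differed negatively and 72.8% positively for PQ, and 20.4% and 71.2% for HL. For Salt, 7 members differed, all positively (34.9% of all genes, and 45.3% with 28.8% negative under the same-total scaling), led by CYCB1;2 with 1.07 ± 0.13. For HS, 7 differed, all positively (27.5%), led by CYCB1;4 with 0.88 ± 0.14. CYCB2;1, CDKB1;1 and KNOLLE did not pass for Salt, and CYCA1;1, CYCB1;3 and CYCB2;1 did not pass for HS. The comparisons with the control and these interactions share libraries.

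**Figure D5:**
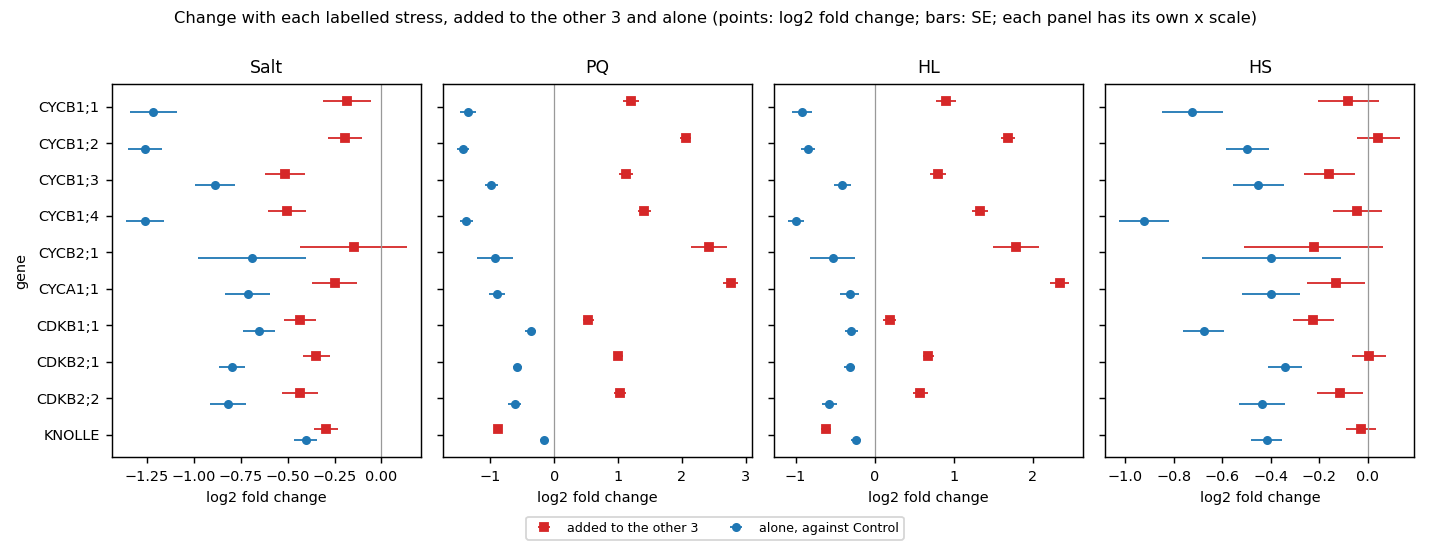
Log2 fold change (x axis, own scale in each panel) of the 10 genes (rows) when a labelled stress is added to the other 3 (red squares, Salt + PQ + HL + HS against the combination lacking it) and for the stress alone against the control (blue circles), with SE as bars. For PQ and HL the red and blue values of the cyclins and CDKB genes have opposite signs; for Salt and HS most red values lie closer to 0. When libraries are scaled to the same total, the red value of KNOLLE turns positive for HL and loses its call for PQ.

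Other genes of the cycle were counted in lists of known function. Of 11 other A-type and B-type cyclins and CDKB1;2, 9 were lower and 1 higher in HL + HS (43.2% of all genes lower, 42.7% higher), and 7 lower and 2 higher in Salt (39.1% lower, 40.5% higher). The 1 that rose in HL + HS was CYCA1;2, a relative of CYCA1;1 known from male meiosis, with a log2 fold change of 1.69, while CYCB2;2 and CYCA2;1 each fell by 2.06 on the log2 scale. CYCA1;2 was higher in each of PQ + HS, HL + HS, Salt + PQ + HS and Salt + HL + HS (0.87 to 1.69), and with libraries scaled to the same total it had 0.79, 0.83, 0.35 and 0.05 in that order. The median of this list was -1.15 in HL + HS, -0.48 in Salt and -0.14 in Salt + PQ + HL + HS. In the last of these, 1 was lower and 2 higher (23.6% of all genes lower, 23.3% higher).

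Of 20 genes of the spindle, its checkpoint and cytokinesis, 14 were lower and 4 higher in PQ + HS, HL + HS and Salt + PQ + HS alike. In Salt + HL + HS, 14 were lower and 3 higher. Over all genes, 42.1% to 43.2% were lower and 42.1% to 42.9% higher in these 4 groups. With libraries scaled to the same total, 71.9% to 78.8% of all genes were lower, and counts of this list are not given for that scaling. HINKEL, a kinesin of cell plate expansion, fell by 2.46 on the log2 scale in PQ + HS and by 2.01 in HL + HS. EDE1, a microtubule-associated protein of the endosperm and of dividing cells, rose by 1.59 in HL + HS and 1.39 in PQ + HS, and by 0.73 and 0.74 with libraries scaled to the same total. In Salt, 17 were lower and 2 higher (39.1% of all genes lower, 40.5% higher), with HINKEL at -1.35 and AURORA2, a mitotic kinase, at 1.17. In PQ + HL + HS, limma called 0 of the 20 in either direction (1 lower and 2 higher at an unadjusted p under 0.05), edgeR called 2 higher and DESeq2 1 higher. Over all genes, limma called 10.1% lower and 9.65% higher there. Of 3 genes listed with KNOLLE, its fusion partner SNAP33, the regulator KEULE and its relative SYP112, all rose in HL + HS, with log2 fold changes of 1.05, 0.46 and 0.32, but scaled to the same total these were 0.19, -0.40 and -0.54.

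S-phase genes were counted in the same way. Of 16, 15 were lower and 1 higher in HL + HS and 16 lower in Salt (43.2% and 39.1% of all genes were lower), with medians of -0.59 and -1.07. The 1 that rose in HL + HS was PCNA1, the replication clamp, at 0.91 (0.05 with libraries scaled to the same total), and the largest fall was that of the S-phase cyclin CYCA3;1, at -2.96. For Salt the median of the S-phase list lay below that of the 10 members (-0.81), and for HL + HS it lay above (-1.41). Of 11 D-type cyclins and CDKA;1, which act at entry into the cycle, 9 were lower in HL + HS and 8 in Salt, with CYCD4;2 at -1.63 in HL + HS. CDKA;1, the kinase that D-type cyclins bind, had -0.18 in HL + HS, and was chosen after its values were seen.

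Of 13 inhibitors of CDKs and WEE1, 12 were tested, of which 5 were lower and 4 higher in HL + HS, near the shares over all genes (43.2% lower, 42.7% higher). SMR4, a SIAMESE-related inhibitor, had the largest rise, at 3.22 in HL + HS, 3.02 in PQ + HS, 3.20 in Salt + HL + HS as well as 2.89 in Salt + PQ + HS, and it was not called in PQ + HL + HS or Salt + PQ + HL + HS. It stayed at 2.37 in HL + HS with libraries scaled to the same total. KRP3, of the other inhibitor family, fell by 1.83 in HL + HS. SMR5, known to respond to reactive oxygen, is listed at 0 in all 48 libraries. Among 13 regulators of transcription and of exit from mitosis, MYB3R5, a repressor of MSA genes, had the largest rise in HL + HS, at 3.07 (2.21 with libraries scaled to the same total), and DEL1, an atypical E2F, the largest fall, at -2.29. MYB3R3, another repressor, had the largest rise in Salt, at 2.06. MYB3R4, an activator that was chosen after its values were seen, had -0.20 in HL + HS and 0.28 in Salt. Of 12 DNA damage response genes 10 were tested, and 4 were lower and 3 higher in HL + HS, under the shares over all genes, led by ANAC044 at -1.60 and WEE1 at 0.41 (-0.45 scaled to the same total).

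Markers of the tissues that hold dividing cells moved in part with the members. The summed normalised count of 4 shoot meristem genes (STM, WUS, CLV3 and CLV1) ranged from 1613 to 1705 in HL + HS, and from 1251 to 1362 in Salt + HL + HS, against 3338 to 3544 in the control. Most of this sum was CLV1, which fell by 1.15 on the log2 scale in HL + HS and rose by 0.62 in Salt + PQ + HL + HS. With the deposited size factors STM, which defines the meristem, had 0.21 and -0.05 in HL + HS and Salt + HL + HS and was not called in either. With libraries scaled to the same total, the median over all genes was -0.88 and -0.84 there, and STM is not given for that scaling. WUS and CLV3 had means of at most 8.20 normalised counts in those groups and the control, and were not tested. The sum of 5 root meristem genes (PLT1, PLT2, WOX5, SCR and SHR) ranged from 2018 to 2284 in HL + HS, against 3783 to 4111 in the control. Of the 5, 4 were lower and WOX5 was higher, at 0.84 (-0.01 scaled to the same total). Over all genes 43.2% were lower and 42.7% higher there, and 78.8% and 14.3% with libraries scaled to the same total. In Salt the root sum was 3936 to 4236, which overlapped the control, while all 10 members were lower (39.1% of all genes were lower). The 3 leaf mesophyll genes moved as well. CAB1 and LHCB2.1, which bind chlorophyll in the light-harvesting antenna, had log2 fold changes of 0.50 and 0.56 in HL + HS (-0.36 and -0.31 scaled to the same total) and of -1.22 and -0.34 in Salt, while RBCS1A, of the small subunit of Rubisco, had -0.20 and -0.61. The part of tissue composition in the results was not tested.

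The genes whose profile over the 48 libraries was most like the mean of the 10 members were sought among all genes tested, as a description, since libraries share treatments and size factors. The closest were CSLD5, a cellulose synthase-like gene of the cell plate (Pearson r = 0.988), HINKEL (AT1G18370, 0.987), the topoisomerase gene TOPII (0.984), the kinesin gene ATK5 (0.981), AT3G51280 (0.980), AT5G60930 (0.978), AT4G26660 (0.978) and CYCB2;4 (0.978). Of these 8, HINKEL and CYCB2;4 were on the lists. Among the members themselves, with the deposited size factors, r with the mean of the other 9 was between 0.844 for CYCB1;1 and 0.962 for CDKB2;2, but -0.531 for KNOLLE. KNOLLE turned round in PQ + HS, HL + HS, Salt + PQ + HS and Salt + HL + HS with libraries scaled to the same total. For that scaling r is not given. For CYCB1;1 alone the closest were AT1G49870 (0.947), VLN1 (0.937), AT2G42110 (0.936), FU (0.934) and AT5G23910 (0.929), none of them a member.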

How the data were processed

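Whole seedlings of 16 labelled groups were sequenced in 3 biological replicates each. The authors used FastQC 0.11.7 for read quality, STAR 2.4.0.1 for alignment to TAIR10 and DESeq2 (1.20.0 in the submitters' processing notes) for normalisation of gene counts. The signal values deposited by the authors are thus read counts divided by 1 size factor per library. All values were whole multiples of 1 read (tolerance 0.001), which gave back the reads and depths (67888254 to 87569857 per library). Fold changes come from a single limma fit (3.58.1, with a variance trend, in R 4.3.3) to log2(normalised count + 1), with 1 mean per group, for genes whose mean was 10 or more, with Benjamini-Hochberg adjustment within each comparison. This test replaces a count test because the deposited unit is not raw counts. Fold changes of low genes are understated on this scale. The script was tested on simulated data.

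The members and lists were chosen with earlier results of these data known. All 10 members were named. From each list the text names the called gene with the largest rise and that with the largest fall, and the genes whose profile was most like the members were ranked by Pearson correlation over the 48 libraries. Any other gene of the cell cycle lists is said to have been chosen after its values were seen. Genes named from the lists of stress and tissue markers were not all picked by this rule. The promoter of 1 member is not reported here. All 133 list genes were matched by identifier to the table and to RefSeq annotation. The labels are those of the submitters. The p-values rest on the spread between pools within groups, estimated for each gene over all 16 groups and moderated by the variance trend. Alternatives were pseudocounts of 0.1 and 10, no filter, only the groups compared, quantile normalization, libraries scaled to the same total, a replicate block, each replicate left out (for treatments, the same number in all), and edgeR 4.0.16 and DESeq2 1.42.0 on the recovered reads. Tables were made with Python 3.11.15, pandas 2.3.3 and numpy 2.4.6, and plots with matplotlib 3.10.9.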

Additional observations from a re-analysis of the deposited data

Results flagged for a closer look

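Each labelled stress had a different effect on 7 to 10 of the 10 members when added to the other 3 stresses than when given alone. This was tested by the interaction term in limma with Benjamini-Hochberg adjustment. For PQ the difference was positive in 9 members (43.7% of all genes), the largest being that of CYCA1;1 at 3.66 on the log2 scale, and negative in KNOLLE (43.3% of all genes), at -0.72. For HL it was again positive in 9 (43.1%), with CYCA1;1 at 2.66, and negative in KNOLLE (42.9%), at -0.37. With libraries scaled to the same total KNOLLE turned positive, at 0.38 for PQ and 0.60 for HL. Of all genes, 72.8% then differed positively for PQ and 71.2% for HL. For Salt 7 members differed, all positively (34.9% of all genes), with CYCB1;2 at 1.07, and for HS 7 differed, all positively (27.5%), with CYCB1;4 at 0.88. In all, 10 members differed for PQ and 10 for HL. These contrasts depend on the labels, against which the heat markers went. The part of this disagreement in the differences was not tested.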

How the results depend on the processing

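Of the counts of members called under the alternatives, 603 were within 1.5 times the main count and 29 were not. When other groups were left out of the fit, 5 members were lower in PQ + HL (3 in the fit of all groups), 6 were lower in Salt + PQ + HL (2) and 1 was higher in PQ + HS (0). Under quantile normalization these were 5 lower in PQ + HL and 4 lower in Salt + PQ + HL, and 0 were lower for HS added to Salt + PQ + HL (1). edgeR and DESeq2 each called 4 lower in Salt + PQ + HL. With libraries scaled to the same total, 6 were lower and 0 higher in PQ + HL, 0 were higher in HL + HS, Salt + HL + HS and Salt + PQ + HS (1 each, KNOLLE), and 0 were lower for PQ added to Salt + HL + HS and for HL added to Salt + PQ + HS (1 each, KNOLLE). The cause was not tested.

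Leaving out 1 replicate at a time gave 0 to 2 lower in Salt + PQ + HL, 4 to 7 lower in Salt + HS, 0 to 1 higher in PQ + HL, 0 to 1 higher in PQ + HS, 0 to 2 higher in PQ + HL + HS and 0 to 1 lower for HS added to Salt + PQ + HL.

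Of the fold changes of single members under the alternatives, 3318 kept direction and call, 62 gained and 62 lost a call, and 8 turned round. KNOLLE scaled to the same total had log2 fold changes of -0.53 in PQ + HS, -0.22 in HL + HS, -0.11 in Salt + HL + HS and -0.33 in Salt + PQ + HS, of 0.15 for HL added to Salt + PQ + HS, and of 0.38 and 0.60 for the PQ and HL interactions. CDKB1;1 had -0.017 for HL added to Salt + PQ + HS under quantile normalization. Over all genes, edgeR called 9472 lower and 8929 higher in HL + HS, and DESeq2 called 9467 lower and 9600 higher.

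Replicate numbers did not pair the samples: the mean correlation of deviations was -0.000294 for libraries with the same number and 0.000153 for others. With the replicate block, no call of a member changed, so that 9 members were again lower in PQ + HS and 10 in Salt.

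Limits: CYCB2;1 fell to 5 reads in 1 library, so that its values are the least precise. Strand was not stated, so that the reads of KNOLLE and NPQ1 are not separate. Whole seedlings were pooled.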

Other observations

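Of 16 S-phase genes, 4 were higher in libraries labelled PQ + HL + HS than in the control (limma, adjusted p under 0.05; 9.65% of all genes were higher), namely MCM3 by 0.24, ETG1 and TSO2 by 0.18 each and PCNA2 by 0.13 on the log2 scale, and these were chosen after their values were seen. With Salt added to the label, 10 of the 16 were lower than in the control (23.6% of all genes were lower), among them TSO2, a subunit of ribonucleotide reductase, at -0.40 and PCNA2 at -0.31.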
